A study of Mus musculus with 2 samples.

Results

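Angptl7 and 1500015O10Rik were followed in single cells labeled by an alpha smooth muscle actin (αSMA)-driven Cre and sorted from mouse periosteum, the fibrous and cellular sheet on the outer bone surface. These 2 genes, of 16150 genes with at least 1 transcript in the wells used, were chosen by their pooled transcript levels, which were lower 13 weeks after labeling than 2 days after it. The fall over time is therefore described without a test. What follows concerns the wells that held the transcripts, how much of the fall lay in few wells, and which other genes were found in the same wells.

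Angptl7 encodes a secreted angiopoietin-like protein with a coiled-coil and a fibrinogen-like domain, best known from the cornea and the outflow tissue of the eye. 1500015O10Rik, named Ecrg4 in RefSeq, encodes augurin, a small secreted protein that is processed into peptides and is known from cartilage and the choroid plexus. Tendon and ligament cells make a dense collagen matrix with small leucine-rich proteoglycans such as fibromodulin (Fmod), and they carry the membrane protein tenomodulin (Tnmd) and the matrix protein thrombospondin-4 (Thbs4).

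Cells were collected from tibia and femur of pooled female mice carrying αSMACreER and the Ai9 Tomato reporter, after 2 tamoxifen doses of 75 mg/kg. The 2-day (2 d chase, 10.3 weeks of age) and 6-week (43 d chase, 14.4 weeks of age) mice also carried Col2.3GFP. The 13-week mice (96 d chase, 20.1 weeks of age) carried R26-M2rtTA/TetOP-H2B-GFP instead and had been fed doxycycline for 5 weeks from postnatal day 11. Only Tomato+ cells were sorted, so the αSMA promoter decided which cells could be seen. There was 1 pool per time point, so chase time, age, strain and, for the 6-week cells, plate cannot be told apart, and the time points were compared by value alone. The 2-day and 13-week cells shared 1 plate.

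Of 192, 216 and 192 wells at 2 days, 6 weeks and 13 weeks, 181, 189 and 133 held at least 200 genes and were kept. Their median depth was 795, 672 and 726 transcripts counted by unique molecular identifiers (UMIs). Wells with 3 or more UMIs of Thbs4, Fmod and Tnmd together are called tendon-gene wells here, and they numbered 70, 68 and 49, or 38.7%, 36% and 36.8% of the kept wells. Wells were also split by Rgs5, a gene of pericytes, which had a UMI in 35, 45 and 38 kept wells. Mitochondrial genes took a median of 5.05%, 3.96% and 7.28% of UMIs in tendon-gene wells at the 3 time points. Scx, the tendon transcription factor scleraxis, had 56 UMIs in tendon-gene wells and 4 in all other kept wells, and Mkx, another tendon factor, 22 and 4. Intervals below are at 95%, are exact (Clopper-Pearson for shares of wells, Poisson for levels, conditional binomial for ratios of levels) and cover counting error only, not the spread between mice.

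Both genes are on the mm10 (GRCm38) assembly, with positions from GENCODE M21. Angptl7 (ENSMUSG00000028989.3) has 5 exons on the minus strand at chr4:148495183-148500460, within Mtor, which runs on the plus strand at chr4:148448611-148557683. None of the 5 exons overlapped an exon of Mtor. 1500015O10Rik (ENSMUSG00000026051.8) has 4 exons on the plus strand at chr1:43730602-43742578, and its 3′ end lies in the span of the antisense gene Gm29155, at chr1:43741961-43743895 on the minus strand, with no exon in common. Whether counting used strand is not given in the sources used here. Since no exon is shared, this concerns only reads from outside the exons of Mtor and Gm29155. Whether any such reads were counted for Angptl7 or 1500015O10Rik is not known.

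The 250 bases before each transcription start are shown because the genes were grouped for a shared fall, and these are the stretches next to their starts. They are from RefSeq on GRCm38.p6, where both genes were matched. The Angptl7 window lies at chr4:148500463-148500712 on the minus strand, in an intron of Mtor, and the 1500015O10Rik window at chr1:43730352-43730601 on the plus strand, outside any gene annotated in M21. Capitals mark matches on either strand to CANNTG, the E-box letters read by helix-loop-helix factors such as scleraxis of tendon, and to CAGAC, letters read by SMAD factors.
Angptl7: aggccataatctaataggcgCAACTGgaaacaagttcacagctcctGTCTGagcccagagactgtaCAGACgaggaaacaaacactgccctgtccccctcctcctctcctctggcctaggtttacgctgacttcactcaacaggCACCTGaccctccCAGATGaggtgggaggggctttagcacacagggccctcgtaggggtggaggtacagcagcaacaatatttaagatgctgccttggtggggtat
1500015O10Rik: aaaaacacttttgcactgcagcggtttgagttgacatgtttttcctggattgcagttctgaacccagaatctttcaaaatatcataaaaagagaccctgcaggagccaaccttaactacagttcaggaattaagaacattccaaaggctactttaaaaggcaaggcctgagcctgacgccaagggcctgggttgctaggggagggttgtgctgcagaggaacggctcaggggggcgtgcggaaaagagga

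The Angptl7 window held 3 matches to CANNTG and 2 to CAGAC, and the 1500015O10Rik window held neither. Of 32851 mouse windows of the same length, 66.2% held CANNTG and 42.2% held CAGAC. The 1500015O10Rik window held 1 match each to AGAACA (in 16.1% of windows) and CATTCC (in 12.6%), which overlap each other, and the Angptl7 window held 1 match to TATTTAA (in 4.18%). The RUNX letters TGTGGT (in 14%), the AP-1 letters TGANTCA (in 6.75%) and the TATA box TATAAA (in 12.4%) were in neither window. The 8 motifs were searched on both strands and were chosen with the sequences in view. None of them was in both windows, and a match of letters is not a binding site.

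Angptl7 was found almost wholly in tendon-gene wells. At 2 days, 6 weeks and 13 weeks, 171, 90 and 23 Angptl7 UMIs were counted in kept wells, and 164, 87 and 21 of these in tendon-gene wells. Over all time points that is 95.8% of its UMIs, in wells that held 170295 of the 445796 UMIs. A UMI was seen in 27 of 70 tendon-gene wells at 2 days (38.6%, 27.2 to 51), in 18 of 68 at 6 weeks (26.5%, 16.5 to 38.6) and in 9 of 49 at 13 weeks (18.4%, 8.76 to 32). Median depths in these wells were 860.5, 652 and 802 UMIs, so the 13-week wells were deeper at the median than those at 6 weeks. With each well thinned to 300 UMIs, the shares were 26.5%, 23.1% and 14.3%, in the same order, with overlapping intervals.

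Angptl7 outside tendon-gene wells was seen only as single UMIs. Such wells numbered 7 of 111, 3 of 121 and 2 of 84, and each held exactly 1 UMI. Of the 105 wells with Rgs5 and fewer than 3 tendon-gene UMIs, 4 held a UMI of Angptl7 (3.81%, 1.05 to 9.47, median depth 571), as did 8 of the 211 other wells under 3 tendon-gene UMIs that had no Rgs5 (3.79%, 1.65 to 7.33, median depth 734). These wells were not free of tendon genes, since Fmod had a UMI in 21.9% of the former and 28% of the latter. These UMIs also had few reads behind them: 23 reads for 12 UMIs, or 1.92 reads per UMI, whereas all genes in the same wells had 6.11. In tendon-gene wells the 272 Angptl7 UMIs came from 2113 reads, 7.77 per UMI, against 6.01 for all genes. Whether the single UMIs outside tendon-gene wells came from free RNA was not tested. Of the 13 tendon-gene wells that also had Rgs5, 1 held Angptl7, with 5 UMIs at 2 days.

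1500015O10Rik also favored tendon-gene wells but was less limited to them. Kept wells held 96, 51 and 23 of its UMIs at the successive times, with 80, 39 and 18 in tendon-gene wells. It had a UMI in 25 of 70 tendon-gene wells at 2 days (35.7%, 24.6 to 48.1), in 15 of 68 at 6 weeks (22.1%, 12.9 to 33.8) and in 4 of 49 at 13 weeks (8.16%, 2.27 to 19.6). Thinned to 300 UMIs, these shares were 19.1%, 13.8% and 4.08%. Outside tendon-gene wells it was found in 12 of 111, 5 of 121 and 5 of 84 wells, with up to 5 UMIs in a well.

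Outside tendon-gene wells the read support of 1500015O10Rik was furthest from that of all genes at 13 weeks, where 5 UMIs had 11 reads. At 2 days and 6 weeks it was 5.5 and 8.33 reads per UMI, against 5.18 and 7.58 for all genes. In tendon-gene wells it was 3.92, 4.69 and 7.33 at the successive times, against 4.79, 7.77 and 5.69. The 33 UMIs of 1500015O10Rik outside tendon-gene wells had 6.03 reads per UMI, close to the 6.11 of all genes there, but the 5 at 13 weeks were single UMIs in 5 wells with 2.2 reads per UMI against 5.38 for all genes. Over all times the 33 were in 17 of 211 wells without Rgs5 (8.06%, 4.76 to 12.6) and in 5 of 105 with it (4.76%, 1.56 to 10.8), and each of the latter 5 held 1 UMI. The intervals of these shares overlap. Of the 33 UMIs, 10 were in wells with 1 tendon-gene UMI, 14 in wells with 2 and 9 in wells with none.

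The cut at 3 tendon-gene UMIs treated the genes differently. Wells with exactly 2 tendon-gene UMIs, just outside, numbered 47 and held 1 Angptl7 UMI and 14 of 1500015O10Rik. Wells with exactly 3, just inside, numbered 17 and held 1 and 15. Angptl7 was therefore far from the cut, while 1500015O10Rik was spread across it.

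**Figure D1:**
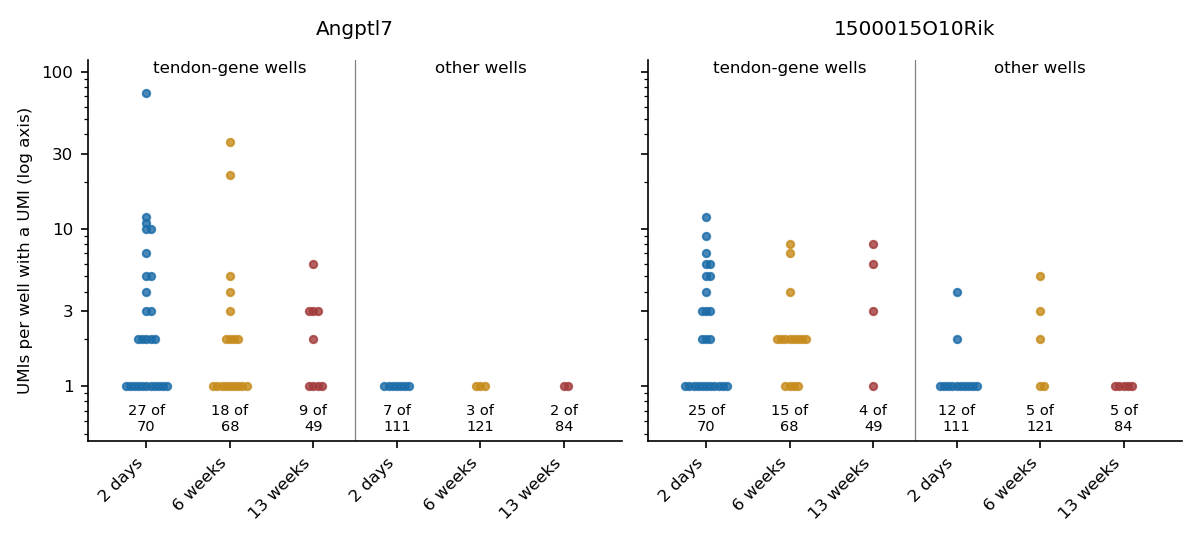
UMIs of Angptl7 (left) and 1500015O10Rik (right) in each well that held at least 1, on a log axis, by time point, for tendon-gene wells and other wells, with the number of wells holding a UMI of all wells below each group. One 2-day well held 73 Angptl7 UMIs, every Angptl7 well outside the tendon-gene wells held 1, and only 4 tendon-gene wells held 1500015O10Rik at 13 weeks.

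Pooled over wells, both genes were highest at 2 days, intermediate at 6 weeks and lowest at 13 weeks. In tendon-gene wells Angptl7 had 23.3 UMIs per 10000 at 2 days (19.8 to 27.1), 15.4 at 6 weeks (12.4 to 19.1) and 4.83 at 13 weeks (2.99 to 7.38). The level at 13 weeks was 0.208 of that at 2 days (0.125 to 0.328) and that at 6 weeks 0.664 (0.506 to 0.866). 1500015O10Rik had 11.3 (9 to 14.1), 6.92 (4.92 to 9.47) and 4.14 (2.45 to 6.54), with ratios to 2 days of 0.365 at 13 weeks (0.206 to 0.614) and 0.61 at 6 weeks (0.405 to 0.905). These intervals treat UMIs of 1 well as independent, and since the fall chose the pair, nothing is read from them here. Without the highest 2-day well, Angptl7 at 2 days was at 13.5 in tendon-gene wells, below the 15.4 at 6 weeks. In kept wells it was then 5.83 against 5.74. The 6-week level also leaned on 1 well. With the highest well of both times left out, the levels were 13.5 and 9.61 in tendon-gene wells and 5.83 and 3.52 in kept wells. The 13-week share of Angptl7 in tendon-gene wells was 0.673 with wells thinned to 300 UMIs and 0.114 with a minimum of 300 genes a well. With other definitions of the class, that of 1500015O10Rik went from 0.0298 (by Thbs4 and Tnmd) to 0.447 (at 2 or more UMIs). A pooled level cannot tell fewer cells with the transcript from less transcript per cell.

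Among all genes with at least 50 UMIs at both times together, 0.5 or less of the 2-day level at 13 weeks was reached by 49 of 772 genes in kept wells (6.35%) and by 32 of 273 in tendon-gene wells (11.7%). Because this contrast chose the pair, their places are given only as a description: Angptl7 was the 5th lowest of 772 and the 3rd lowest of 273, and 1500015O10Rik the 19th and the 7th. The median ratio over genes was 0.918 and 0.842. At 6 weeks, where 14 of 313 genes (4.47%) were at 0.5 or less of their 2-day level in tendon-gene wells, neither gene was, and they ranked 66th and 40th from the lowest.

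Angptl7 wells of the tendon-gene class held on average 6.07, 4.83 and 2.33 UMIs each at the successive times. Scaled to depth, the lowest, median and highest of these wells had 6.77, 33 and 231 UMIs per 10000 at 2 days, 8.66, 27 and 111 at 6 weeks, and 6.93, 28.1 and 144 at 13 weeks. The wells of the 3 times overlapped. 1500015O10Rik wells of the same class held a mean of 3.2, 2.6 and 4.5 UMIs, and medians of 17, 24.7 and 31.8 per 10000. The number of wells with 1500015O10Rik went from 25 of 70 at 2 days to 4 of 49 at 13 weeks. Levels in wells that hold a gene depend on its detection and on the depth of the well, so these medians do not show the amount per cell.

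Few wells carried most of Angptl7. A single 2-day well held 73 of its 171 UMIs (42.7%, 35.2 to 50.5), the 5 highest held 116 (67.8%) and the 10 highest 140 (81.9%). Concentration was like this at the other times as well, with 40% of UMIs in 1 well at 6 weeks and 26.1% at 13 weeks. Its 3 highest wells at 2 days, 2 at 6 weeks and 3 at 13 weeks held at least 50% of its UMIs. For the 450 genes with at least 50 UMIs at 2 days, the median share in the highest well was 5.77%, and 6 genes had a higher share than Angptl7.

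The highest well was deep and rich in tendon genes. It held 3155 UMIs of 1576 genes, and 1 kept 2-day well had more. Angptl7 made up 2.31% of its UMIs, with 646 reads behind the 73 molecules, and 4 genes had more UMIs there. It also held 78 UMIs of Fmod, 22 of Tnmd, 19 of Thbs4, 19 of Wif1 and 2 of 1500015O10Rik, and none of Rgs5 or Sfrp2. The wells with 36 and 22 Angptl7 UMIs at 6 weeks were also deep, at 3251 and 2318 UMIs. At 13 weeks the highest well held 6 UMIs of 416.

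At 2 days 1500015O10Rik was less concentrated in single wells than Angptl7, but not at 13 weeks. Its highest 2-day well held 12 of 96 UMIs (12.5%, 6.63 to 20.8), its 5 highest 40 (41.7%) and its 10 highest 61 (63.5%), and 7 wells were needed for 50%. At 13 weeks 1 well held 8 of 23 (34.8%, 16.4 to 57.3), against 26.1% for Angptl7, and 2 wells held at least 50%. Over the 805 genes with at least 20 UMIs at 13 weeks the median share in the highest well was 9.62%, and 24 genes were above 1500015O10Rik, as were 33 of the 450 genes at 2 days.

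The size of the fall rested on these wells to different degrees. Leaving out the single highest 2-day well moved the 13-week share of the 2-day level of Angptl7 in tendon-gene wells from 0.208 to 0.357, and leaving out 5 moved it to 0.629. The 13-week level was no longer 0.5 or less after 4 wells were left out, and was passed after 9. For 1500015O10Rik the share went from 0.365 to 0.423 without 1 well and 0.653 without 5, and the same points were reached after 3 and 9 wells. Leaving out high wells at 2 days only lowers that level by construction. With the highest well of each time point left out, the ratio in tendon-gene wells was 0.258 for Angptl7 and 0.239 for 1500015O10Rik. Leaving out the 5 highest of each gave 0.129 and 0, but lowers the 13-week level by construction, since 9 and 4 tendon-gene wells held the genes then, against 27 and 25 at 2 days.

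With each well capped at 1 UMI of the gene, over the same total of UMIs, the 13-week share of the 2-day level in kept wells was 0.47 for Angptl7 and 0.353 for 1500015O10Rik. With wells weighing the same, it was 0.407 and 0.421. In tendon-gene wells the cap gave 0.541 and 0.259, and equal weights gave 0.451 and 0.355. Under these settings the ratio of Angptl7 was near or above that of 1500015O10Rik, and in uncapped pooled UMIs it was lower.

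**Figure D2:**
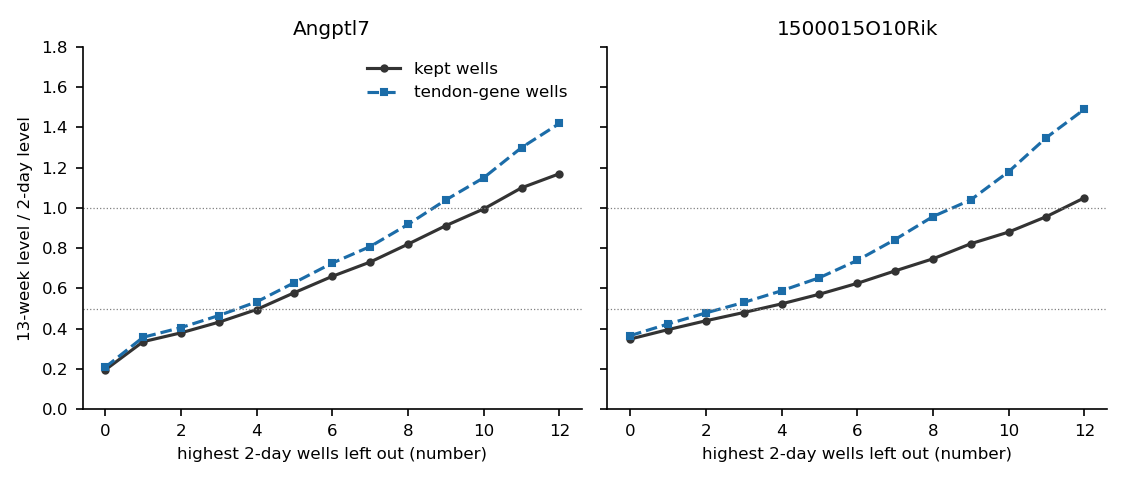
Ratio of the 13-week to the 2-day pooled level of Angptl7 (left) and 1500015O10Rik (right) as the highest 2-day wells are left out one after another, in kept wells (solid line) and tendon-gene wells (dashed line), with dotted lines at 0.5 and 1. In tendon-gene wells both lines pass 1 when 9 wells are left out, and the first well left out moves Angptl7 from 0.208 to 0.357.

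The 2 genes shared wells at 2 days and 6 weeks, while at 13 weeks too few wells held either to read an overlap. In tendon-gene wells both were seen in 17 of 70 wells at 2 days, which is 63% of the Angptl7 wells and 68% of the 1500015O10Rik wells. Among wells without the other gene, 18.6% held 1500015O10Rik and 22.2% Angptl7. At 6 weeks both were in 6 of 68 wells, 33.3% and 40% of the respective wells, against 18% and 22.6% of wells without the other gene. At 13 weeks 0 of 49 wells held both, which with a limit of 3 wells allows up to 6.12%, and 9 and 4 wells held one alone. These were 20% of the wells without 1500015O10Rik and 10% of those without Angptl7, so 0 shared wells does not show a loss of overlap. Wells with 1500015O10Rik were deeper than those without (a median of 1321 against 754 UMIs at 2 days), while Angptl7 wells were not (845 against 876). Thinned to 300 UMIs, both were in 6, 3 and 0 wells, so the depth left little to count.

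Even where they shared wells, high amounts did not coincide at 2 days. The 5 wells with 10 or more Angptl7 UMIs held 1 or 2 of 1500015O10Rik, and the 2 wells with 12 and 9 of 1500015O10Rik held 2 of Angptl7 each. At 6 weeks 1 well held 22 and 8. Over the 70 tendon-gene wells at 2 days, Pearson's r of ln(1 + UMIs per 10000) was 0.39, over the 68 at 6 weeks 0.24 and over the 49 at 13 weeks -0.13. These values describe wells that share a pool, a plate and sparse counts.

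**Figure D3:**
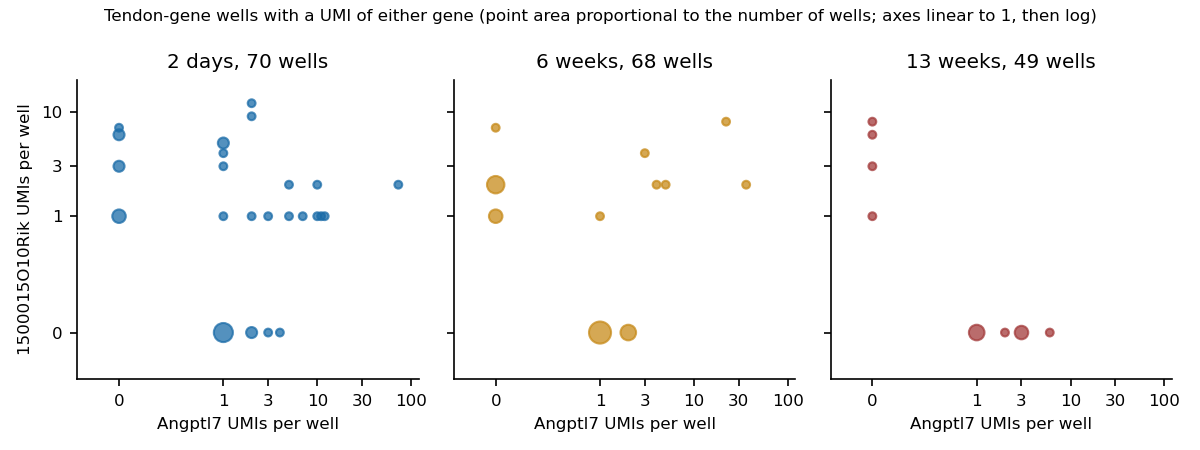
Angptl7 UMIs (horizontal) against 1500015O10Rik UMIs (vertical) in tendon-gene wells with either gene at 2 days, 6 weeks and 13 weeks, with point area proportional to the number of wells and axes linear to 1 and logarithmic above. At 2 days 17 wells lie off both axes, at 6 weeks 6, and at 13 weeks none.

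The genes most like Angptl7 over wells were led by Fmod. Over the 503 kept wells, among 1400 genes with 50 or more UMIs, the highest correlations were with Fmod (0.44), Abi3bp (0.41), Tnmd (0.41), Cilp2 (0.39), Chad (0.38), Prelp (0.34), Wif1 (0.34) and Ogn (0.34). Within the 187 tendon-gene wells, where the class no longer separates wells, they were Fmod (0.45), Prelp (0.40), Abi3bp (0.38), Pamr1 (0.33), Wif1 (0.33) and Cilp2 (0.33). Fmod, Prelp and Ogn (osteoglycin) are small leucine-rich proteoglycans, Chad (chondroadherin) is a leucine-rich matrix protein of cartilage, and Wif1 is a secreted inhibitor of Wnt ligands. These values pool 3 times at which Angptl7 differed in level, and the order changed between times. At 2 days, 6 weeks and 13 weeks, Fmod ranked 1, 3 and 59 within tendon-gene wells, Prelp 2, 20 and 56, Abi3bp 3, 32 and 2, and Pamr1 27, 2 and 177. The correlations are modest and were used only to choose the names.

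Fmod was the most alike in both sets of wells, and the comparison of tendon-gene wells with and without Angptl7 shows by how much. At 2 days Fmod had 151 UMIs per 10000 in the 27 wells with Angptl7 and 38.7 in the 43 without. At 6 weeks it had 141 and 54.3, and at 13 weeks 117 and 43.9. The difference was thus in the same direction at each time, at 3.9, 2.59 and 2.67 times. Thbs4, another gene of the class, had ratios of 1.5, 1.95 and 0.836, and Tnmd 1.98, 1.58 and 1.68. Prelp was 4.41, 3.76 and 2.49 times as high in Angptl7 wells, and Abi3bp 3.94, 1.65 and 4.36 times. Since Fmod, Prelp and Abi3bp were named for this likeness, these folds carry no test.

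The genes most like 1500015O10Rik partly overlapped these, with Wif1, Chad and Fmod among the 8 highest of both. Its most alike genes over kept wells were Sfrp2 (0.44), Wif1 (0.40), Gm26771 (0.38), Chad (0.37), Col8a1 (0.35), Fmod (0.30), Comp (0.30) and Angptl7 (0.28). Within tendon-gene wells they were Sfrp2 (0.52), Wif1 (0.50), Chad (0.46), Gm26771 (0.41), Col8a1 (0.38) and Ltbp1 (0.37). Sfrp2, like Wif1, is a secreted protein that binds Wnt ligands, Col8a1 is a short-chain collagen, and Ltbp1 binds latent TGF-β in the matrix. By time, Wif1 ranked 2, 2 and 56 within tendon-gene wells and Sfrp2 1, 4 and 17, whereas Chad ranked 9, 1 and 351, Gm26771 6, 376 and 28, and Col8a1 5, 295 and 47.

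Sfrp2, Wif1 and Chad were named for their likeness to 1500015O10Rik, so how they split between wells with and without it describes that choice and carries no test. Of 46 Sfrp2 UMIs in tendon-gene wells, 42 were in the 44 wells with 1500015O10Rik and 4 in the 143 without. Per 10000 UMIs, which allows for the greater depth of the former, these are levels of 7.64 and 0.347. For Wif1 the counts were 68 and 13, and its level was 11 times as high in wells with 1500015O10Rik. By time, Sfrp2 had 28, 5 and 9 UMIs in wells with 1500015O10Rik and 2, 1 and 1 in those without. Chad was 3.56, 6.33 and 2.59 times as high in wells with 1500015O10Rik. Thbs4 and Tnmd, by contrast, had ratios of 0.947 and 0.959 over all times, while Fmod was 1.91 times as high. Sfrp2 had 18 UMIs in the 54 wells with Angptl7 and 28 in the 133 without.

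These accompanying genes did not all fall with the pair. In tendon-gene wells Wif1 had 7.94, 3.37 and 1.38 UMIs per 10000 at 2 days, 6 weeks and 13 weeks, a 13-week ratio of 0.174 (0.0612 to 0.402). Of its 56 UMIs at 2 days, 19 were in the highest Angptl7 well, and without that well the ratio was 0.251. Gm26771 had a ratio of 0.208 (0.064 to 0.528) and Col8a1 of 0.376 (0.189 to 0.697). The 5 UMIs of Gm26771 at 13 weeks were in 2.04% of the tendon-gene wells. With 2 days and 13 weeks together, Gm26771, Sfrp2, Pamr1 and Ltbp1 were each under the minimum of 50 UMIs in these wells. Sfrp2 was lowest at 6 weeks, with 30, 6 and 10 UMIs, and its 13-week ratio of 0.541 had an interval reaching above 1 (0.236 to 1.14). Among the genes alike to Angptl7, Fmod (0.677, 0.579 to 0.789), Chad (0.6, 0.4 to 0.883) and Cilp2 (0.552, 0.292 to 0.991) had intervals below 1. That of Ogn was above 1 (1.55, 1.17 to 2.04). These intervals treat UMIs of 1 well as independent, so they do not show a change beyond the spread of wells. Without the highest 2-day Angptl7 well the ratios were 0.749 for Fmod, 0.63 for Chad, 0.62 for Cilp2 and 1.61 for Ogn. Comp, alike to 1500015O10Rik, was at 0.572 (0.315 to 0.996), Pamr1 at 0.602 (0.292 to 1.17) and Ltbp1 at 0.36 (0.0887 to 1.09). At 6 weeks, where both Angptl7 and 1500015O10Rik were below their 2-day level, Comp was at 1.89 (1.31 to 2.75) and Prelp at 1.94 (1.51 to 2.51). Abi3bp (1.01, 0.703 to 1.43), Prelp (0.88, 0.626 to 1.23) and Tnmd (0.881, 0.723 to 1.07) had intervals that include 1, and Thbs4 was at 1.24 (1.08 to 1.44). Thbs4, Fmod and Tnmd define the wells, which holds up their levels there. Over all kept wells Tnmd was at 0.81 (0.667 to 0.98), Thbs4 at 1.11 (0.965 to 1.28) and Fmod at 0.629 (0.542 to 0.728).

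**Figure D4:**
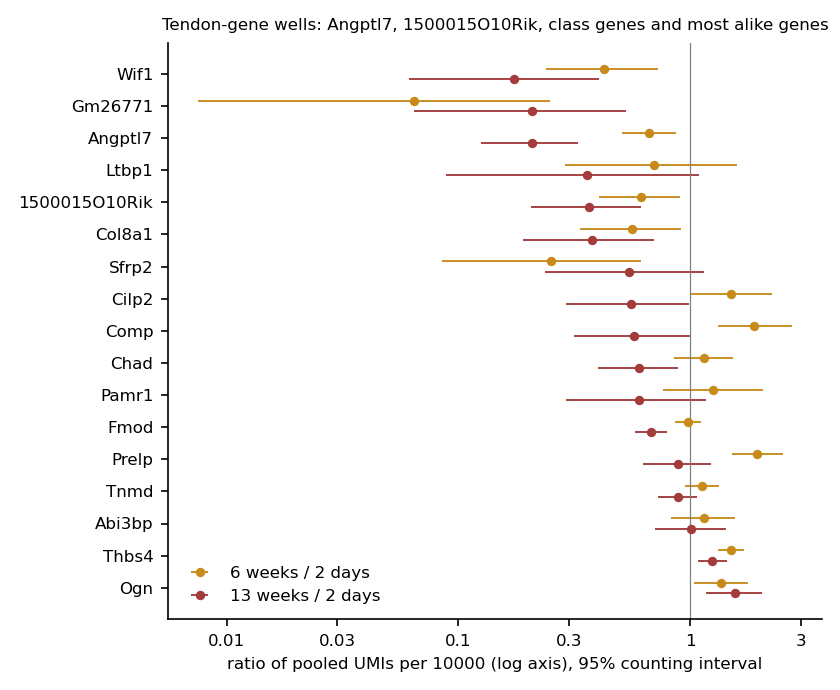
Ratio of the pooled level at 6 weeks and at 13 weeks to that at 2 days in tendon-gene wells, on a log axis with 95% counting intervals, for Angptl7, 1500015O10Rik, the 3 class genes and the genes most alike to either. Wif1, Gm26771 and Col8a1 have intervals below 1 at both times, while those of Ogn and Thbs4 are above 1. Angptl7 and 1500015O10Rik were chosen for a low 13-week ratio and are shown for reference.

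Other genes had low 13-week ratios in the same wells. The 8 lowest of 273 were Col3a1 (0.165), Wif1 (0.174), Angptl7, S100a4 (0.233), Nbl1 (0.339), Fos (0.355), Myl12a (0.365) and 1500015O10Rik. Col3a1, a fibrillar collagen, had 64.3, 50.6 and 10.6 UMIs per 10000, but at 2 days it was lower in wells with Angptl7 (38) than without (79.9). It was higher in wells with 1500015O10Rik (79.8 against 51.2). In the other direction, 10 of 273 genes (3.66%) were at 2 times the 2-day level or more, led by Neat1 (3.28), Rpph1 (3.1), mmu-mir-6236 (3.09), Chodl (3.06) and Rbm39 (2.99).

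Lists of related genes gave mixed ratios, and most could be read for few genes. Of the 36 tendon and ligament genes, 26 had enough UMIs in tendon-gene wells, 1 (Wif1) was at 0.5 or less, beside 11.7% of all genes, 0 were at 2 times or more, and the median ratio was 0.845 beside 0.842 for all 273 genes. The list holds Thbs4, Fmod and Tnmd, by which the wells were chosen, so its ratios there are partly set by that choice. In kept wells the same list had 6 of 29 genes at 0.5 or less, beside 6.35% of all genes, and a median of 0.669 beside 0.918. In the cartilage list of 18, Comp (0.572) and Chad (0.6) could be read in tendon-gene wells. In the TGF-β and BMP list 2 of 32 genes could be read, Id3 (0.708, 0.471 to 1.05) and Ctgf (1.62, 1.1 to 2.38). In the Wnt list of 21 it was Wif1 alone, at 0.174, and in kept wells Wif1 (0.225) and Sfrp2 (0.303). Of 16 glucocorticoid-responsive genes, Tsc22d3, Mt2 and Mt1 could be read, with ratios from 1.35 to 1.94. In kept wells 6 genes of that list could be read, with 1 at 0.5 or less and a median of 0.742, and 6 of the TGF-β and BMP list, with 2 at 0.5 or less and a median of 0.908, beside 0.918 for all genes. These lists were drawn up with earlier results of these data known.

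Of the angiopoietin-like and angiopoietin family and its receptors, Angptl2 was the only relative with enough UMIs. It had 48, 31 and 26 UMIs in tendon-gene wells, a 13-week ratio of 0.878 (0.523 to 1.44), while in other kept wells the ratio was 0.367 (0.182 to 0.688) and over all kept wells 0.59. In tendon-gene wells lay 56.5% of its 186 UMIs, against 95.8% for Angptl7. Angptl1 had 23, 19 and 2 UMIs there, a ratio of 0.141 (0.0161 to 0.571), although its 25 UMIs at both times together are under the minimum of 50. Angptl4 had 5, 2 and 1. Tek and Tie1, the angiopoietin receptors of endothelium, had no UMI in 187 tendon-gene wells, which allows up to 1.6% of wells with a UMI. Pirb, which encodes a receptor for angiopoietin-like proteins, had 1.

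Genes of other cell types were also summed within tendon-gene wells. The osteoblast list (8 of 9 genes with a UMI) summed to 8.37, 39.6 and 3.45 UMIs per 10000 at the 3 times, and in all other kept wells to 38.1, 35 and 3.23. At 6 weeks 94.1% of tendon-gene wells and 91.7% of other wells had a UMI of this list, against 31.4% and 18% at 2 days. In tendon-gene wells the fibroblast list (12 of 12) summed to 213, 202 and 136, and the endothelial list (7 of 11) to 0.993, 2.49 and 5.29. The perivascular list without Rgs5 (11 of 11) summed to 11.3, 5.68 and 10.6, while Rgs5 itself had 4, 4 and 22 UMIs, a 13-week ratio of 8.92 (3.03 to 35.6), with 13 of the 22 in 1 well. Of the other lists, skeletal muscle (10 of 12) summed to 5.25, 3.73 and 5.06, immune (5 of 9) to 0.426, 2.31 and 0.46, and muscle satellite (3 of 8) to 0.567, 0.355 and 0.23. Without a UMI in these wells were 4 of 11 endothelial genes (Tie1, Tek, Cldn5 and Esam), 4 of 9 immune genes (Ptprc, Cd52, Fcer1g and Csf1r), 5 of 8 muscle satellite genes (Cdh15, Myf5, Myod1, Chrdl2 and Fgfr4), 2 of 12 skeletal muscle genes (Myh4 and Myh2) and 1 of 9 osteoblast genes (Dmp1). The other genes of these lists had UMIs there, 44, 18, 7, 80 and 297 in all for the 5 lists. The Schwann list (4 of 8) summed to 0.851, 0.355 and 2.53 in tendon-gene wells. Over all kept wells 25 of its 48 UMIs were in wells with 1500015O10Rik. The part of these lists in the fall of Angptl7 and 1500015O10Rik was not tested. With the tendon-gene wells that also had Rgs5 left out at every time, 3 of 70, 4 of 68 and 6 of 49, the 13-week share of the 2-day level was 0.229 for Angptl7 and 0.395 for 1500015O10Rik.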

How the data were processed

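Single Tomato+ cells were index-sorted 1 per well, so no doublets were removed. For each plate the authors deposited 2 unnormalized tables by gene and well, 1 of UMI counts and 1 of reads, which served as an alternative. Per the labels and methods, reads were aligned to mm10 with STAR 2.5.4a and counted with Drop-seq tools. The submitters' processing notes also name bcl2fastq 2.18.0.12 and Picard 2.9.3. Libraries captured 3′ ends only. Both plates used the same 384 barcodes, so the plate is known from its table alone. Time points were taken from the sample line of the tables. The submitters' separate well list gives the latest wells a time 1 week shorter, and the 13 weeks of the tables and labels was used. The 168 wells of the 6-week plate with no time point there were left out. Where only 1 plate lists a gene, the other was taken to hold 0 of it.

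Wells with 200 or more genes were kept. A level is UMIs per 10000, summed over wells. Likeness was Pearson's r of ln(1 + UMIs per 10000). Named genes were Angptl7 and 1500015O10Rik, the class genes, the 8 most alike genes over kept wells and the 6 within tendon-gene wells, the 8 lowest and 5 highest 13-week ratios, and leading members of the gene lists. Angptl7 and 1500015O10Rik, the lists and the settings were chosen with earlier results of these data known. Alternatives varied the gene minimum, weighting, capping, thinning, denominator, class definition, reads and the wells left out. There was 1 pool per time point, so no test was run. The ratios were checked on simulated counts pooled over wells, so that check does not cover UMIs held by few wells. Python 3.11.15, NumPy 2.4.6, pandas 2.3.3, SciPy 1.17.1 and matplotlib 3.10.9 were used.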

Additional observations from a re-analysis of the deposited data

Results flagged for a closer look

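Wells with fewer than 200 genes were left out of the comparisons, apart from the alternative with a minimum of 100 genes, and at 13 weeks they held Angptl7: 4 UMIs in 2 of 59 wells with 9633 UMIs in all, or 4.15 per 10000, which is above the limit of 3 counts. At 2 days 3 of 11 such wells held 1 Angptl7 UMI each, and at 6 weeks 0 of 27 did. 1500015O10Rik had 0, 0 and 1 UMI in these wells.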

How the results depend on the processing

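Of 103 alternative values, 30 moved, which means out of the counting interval of the reported value or, for the count of genes at 0.5 or less, by over 1.5 times. None of the alternative ratios passed 1, while shares and counts of genes have no direction to change. At most the 5 highest wells were left out in these alternatives. With the 9 highest 2-day wells left out, both ratios in tendon-gene wells passed 1. For Angptl7, the 13-week share of the 2-day level (0.195 in kept wells, 0.208 in tendon-gene wells) was 0.116 and 0.114 with a minimum of 300 genes, 0.407 and 0.451 with wells weighing the same, 0.47 and 0.541 with wells capped at 1 UMI, 0.476 and 0.541 capped at 3, 0.308 and 0.332 without the deepest 5% of wells, and 0.601 and 0.673 with wells thinned to 300 UMIs, but 0.196 and 0.212 thinned to 500. Without the single highest 2-day well it was 0.335 and 0.357 and without the 5 highest 0.579 and 0.629, 2 settings chosen after seeing the data. For 1500015O10Rik the latter gave 0.571 and 0.653. Its ratio (0.348 and 0.365) was 0.103 and 0 without the 5 highest wells of each time point, and in tendon-gene wells 0.189 with the class at 10 or more UMIs and 0.0298 with the class by Thbs4 and Tnmd. The share of 2-day Angptl7 UMIs in tendon-gene wells (95.9%) was 90.6% with the class at 10 or more UMIs and 99.2% by reads, and the share in its 5 highest wells (67.8%) was 81.7% by reads and 45.9% thinned to 300 UMIs. For 1500015O10Rik the share in tendon-gene wells (83.3%) was 60.4% with the class at 10 or more UMIs and 61.5% with 3 or more of 300. Genes at 0.5 or less of their 2-day level in tendon-gene wells (32 of 273) were 111 of 785 with a minimum of 20 UMIs and 8 of 120 with 100. The cause of these shifts was not tested. No paired analysis was possible because no result comes from a test and there was 1 pool per time point. With 23 UMIs of each gene at 13 weeks, counting error alone spans more than a factor of 2, and the spread between mice is unknown.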
